A study of Mus musculus with 10 samples.

Results

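Tumours raised in mouse liver with c-MYC and FOXO1AAA (c-MYC/FOXO1AAA) were compared with normal liver (NL) to measure how far the tumours lay from liver and which liver programmes they kept. Expression is given in FPKM, sequenced fragments corrected for gene length and for library size. Genes were taken when their FPKM was 1 or more in at least 3 of the 7 libraries of these groups, 4 of NL and 3 of c-MYC/FOXO1AAA. This rule kept 13647 of the 16697 gene entries of the table and left out 3050. Of those kept, 1257 reached 1 FPKM in all 3 tumour libraries and in no NL library, and 849 in 3 or more NL libraries and in no tumour library. The 1500 genes that just passed, with 1 FPKM in exactly 3 libraries, had a median highest value of 3.13 FPKM, and the 462 genes with 1 FPKM in exactly 2 libraries one of 1.36 FPKM.

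All mice were wild type at the endogenous genes. The labels give the strain C57BL/6 for every sample, while the extraction protocol and the methods of the study name FVB or FVB/N, and neither gives an age for these mice. The paper states that it used animals of both sexes and did not treat sex as a variable. Whether sex differed between these groups was not tested. NL was tissue of normal liver, and no injection is described for it. The tumours followed hydrodynamic tail vein injection, a method that forces plasmid DNA under pressure into the liver, where hepatocytes take it up. Sleeping Beauty transposase then inserted the plasmids that drive c-MYC and FOXO1AAA from the EF1α promoter. FOXO1AAA is a constitutively active, MYC-tagged form of the transcription factor FOXO1 that AKT cannot inactivate by phosphorylation. Tumour-bearing mice were euthanised when moribund. Another group of tumours carried c-MYC with the empty pT3 vector (c-MYC, n = 3), and the descriptions of it differ on whether MCL1 was injected as well. It adds to the estimate of the spread in the fit of all genes and is otherwise used where the groups of tumours are set against each other. Each library was counted as 1 sample, and the labels do not say whether each came from a separate mouse.

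Hepatocytes secrete most plasma proteins, make bile acids, urea and glucose, and detoxify drugs, and a network of transcription factors that includes HNF4α, C/EBPα and the FOXA proteins maintains these tasks. Their messages are so abundant that a small number of genes fills much of the transcriptome of liver. Dividing hepatocytes and liver tumours can lower these genes and return to genes of the fetal liver.

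The 7 libraries held between 13.1 M and 20.5 M reads in listed genes. The authors scaled each library to an effective size, which was 0.649 to 0.684 times its reads in NL and 1.454 to 1.502 times its reads in c-MYC/FOXO1AAA. Total FPKM was therefore 1062100 to 1124900 in NL and 484370 to 526530 in c-MYC/FOXO1AAA. On the scale of the authors the median log2 fold change of all tested genes between tumours and NL was 0.21. It was 0.09 after setting equal medians, 0.20 after quantile normalization and 1.31 when every library was given the same FPKM total. Levels are given on the scale of the authors, and shares of total FPKM, which no scaling changes, stand beside them where they matter. In these bulk samples, fewer cells of a type and less RNA per cell cannot be told apart.

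Foxo1 was examined first, as the gene that had been injected (chromosome 3, 52268336 to 52353221; GRCm38). It stood at 7.16, 6.67, 7.86 and 6.80 FPKM in NL and at 95.6, 83.6 and 70.1 FPKM in c-MYC/FOXO1AAA. All 3 tumours lay above all NL libraries, with a mean 11.7-fold higher (log2 fold change 3.53, SE 0.13, limma adjusted p 7.36e-09). Mouse Myc stood at 4.10, 22.2, 12.2 and 5.87 FPKM in NL and at 0.897, 1.04 and 0.809 FPKM in the tumours. Whether reads of the injected c-MYC or FOXO1AAA were counted at these genes is not given in the sources used here.

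The tumours lay far from liver. The distance between 2 libraries was taken as the root mean square of their log2 differences over the 13647 genes. Pairs of NL libraries were 0.516 to 0.667 apart, with a mean of 0.559 over 6 pairs. The 3 pairs of c-MYC/FOXO1AAA libraries were 0.467 to 0.559 apart, with a mean of 0.527. Each of the 12 pairs of a tumour and an NL library was farther apart than any pair within a group, from 2.31 to 2.71 with a mean of 2.52. The mean between the groups exceeded the mean within them by 1.975 on the log2 scale (exact permutation test, 1-sided, p 0.02857, the smallest p that the 35 assignments of the libraries allow). Pairs of c-MYC and NL libraries had a mean distance of 2.19, and c-MYC and c-MYC/FOXO1AAA libraries one of 1.79. Over these genes the tumours with FOXO1AAA had a larger mean distance from NL than from the other tumours. The genes were chosen without the c-MYC libraries, so that genes expressed in c-MYC alone were left out. Distances with c-MYC are therefore not measured on equal terms with the distance between NL and c-MYC/FOXO1AAA.

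**Figure D1:**
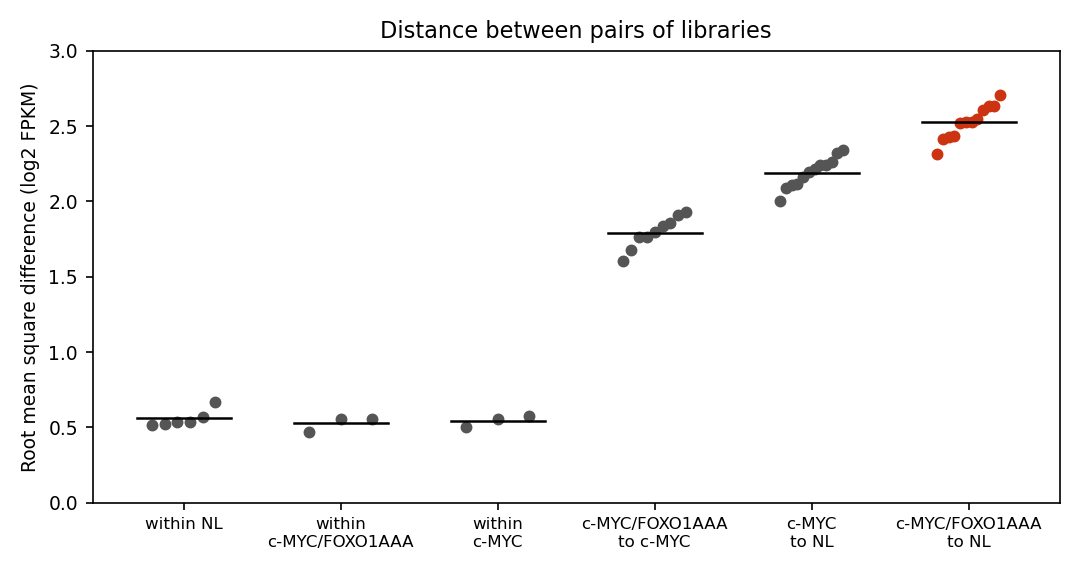
Each point is a pair of libraries, the y axis is the root mean square difference in log2 FPKM over 13647 genes, and bars are means over pairs. The genes were chosen by their levels in NL and c-MYC/FOXO1AAA, without the c-MYC libraries. Pairs of c-MYC/FOXO1AAA and NL (red) lie between 2.31 and 2.71, above all other kinds of pair in their mean.

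Of the 13647 genes, 4315 (31.6%) were higher and 3704 (27.1%) lower in the tumours (limma treat against a change of 1.5-fold, Benjamini-Hochberg adjusted p under 0.05). Together they made up 58.8% of the genes, with a median absolute log2 fold change of 2.21. A further test asked whether a change was shown to be smaller than 2-fold, and 3330 genes (24.4%) passed it. For 2299 genes neither was shown, and 1 gene passed both tests. The groups did not overlap for 81.3% of genes. Scaling each library to one common FPKM total gave 7962 higher and 2089 lower genes, so that the higher genes made up 79.2% of the calls in place of 53.8%. Changes above 10-fold on the fitted scale were found in 1266 lower and 1159 higher genes, or 17.8% of those tested.

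The share of lower genes was highest among the most abundant genes of liver. Of the 100 genes with the highest mean FPKM in NL, 95 were lower in the tumours, 2 were higher and 3 were within 2-fold of NL. Of the next 400 genes, 297 were lower (74.25%) and 57 higher. Of the 1500 genes ranked after these, 56.1% were lower and 9.6% higher. Of the following 3000, 36.3% were lower and 17% higher. Among the 8647 genes of lowest rank, which hold the genes that passed the filter through the tumour libraries alone and therefore lean to higher values, 1382 were lower and 3602 higher. Only 17 of the 100 most abundant genes of NL were also among the 100 most abundant of c-MYC/FOXO1AAA. Albumin (Alb), the main protein of plasma, ranked 1 in NL and 100 in the tumours. The most abundant gene of the tumours was H19, a noncoding RNA of fetal tissues, with 8134 FPKM ± 1303 (SD, n = 3).

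To follow the programmes of hepatocytes, 16 lists with 469 distinct genes were written by hand, of which 460 were in the table and 455 were tested. Of these 455 genes, 433 were lower in c-MYC/FOXO1AAA, 2 were higher, 9 were within 2-fold of NL and 11 were neither. Over all genes tested 27.1% were lower. The median log2 fold change of the listed genes in the table was -4.98, and that of all tested genes 0.21. Per library the listed median was -5.46, -5.00 and -4.48 in tumours 1, 2 and 3. With the same FPKM total in every library, 409 of the listed genes were still lower.

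The listed genes took 45.0%, 44.9%, 44.9% and 46.5% of total FPKM in NL. In c-MYC/FOXO1AAA they took 2.82%, 3.50% and 3.87%, and in c-MYC 7.71%, 8.89% and 7.73%. The groups were far apart, with means of 45.3% ± 0.758 (SD, n = 4) in NL and 3.40% ± 0.533 (SD, n = 3) in c-MYC/FOXO1AAA (exact permutation test, 2-sided, p 0.05714, the smallest p possible with 4 against 3). Without albumin and the major urinary proteins the shares were 37.0% ± 0.789 (SD, n = 4) and 3.215% ± 0.517 (SD, n = 3). For 296 listed genes of 100 FPKM or more in NL, the tumours held a median of 2.36% of the NL level, and 43 of them held less than 1%. The median was 1.65%, 2.35% and 3.25% in tumours 1, 2 and 3. For the 456 listed genes with 1 FPKM or more in NL, the median was 3.26% of NL in FPKM and 6.92% of NL as a share of total FPKM.

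**Figure D2:**
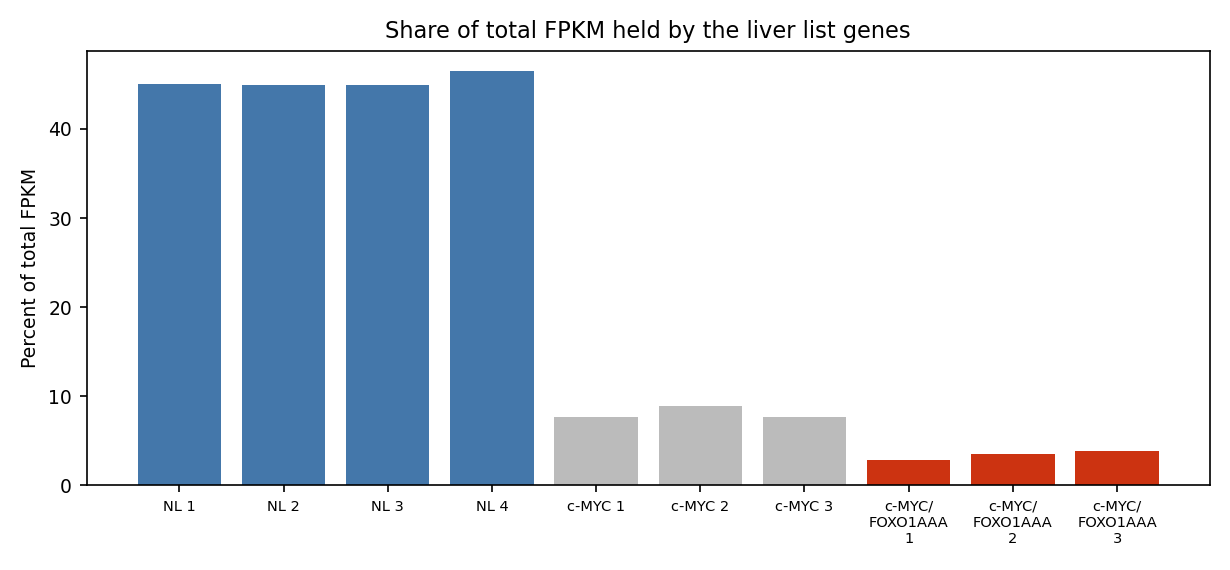
Bars give the percent of total FPKM held by the 460 liver list genes in each of the 10 libraries. NL libraries (blue) stand at 44.9% to 46.5%, and c-MYC/FOXO1AAA libraries (red) at 2.82% to 3.87%.

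The 3 tumours did not hold equal remainders of the liver genes. Tumour 3 had the highest median in 14 of the 16 lists and was the highest of the 3 tumours for 54.1% of the 460 genes. Tumour 1 had the lowest median in 14 lists and was the highest for 7.61% of genes. Whether liver tissue beside the tumours contributed to these remainders was not tested.

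**Figure D3:**
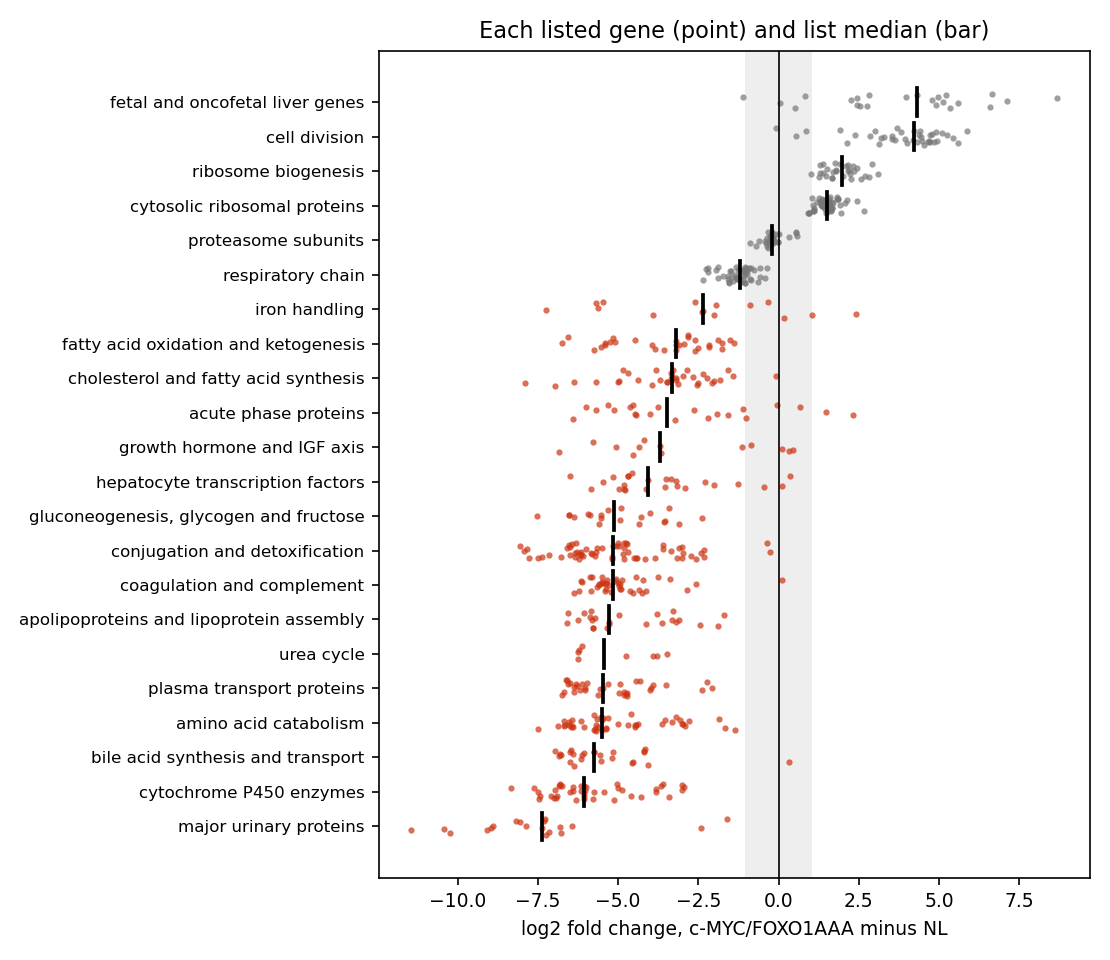
Each point is a gene in the table, the x axis is its log2 fold change (c-MYC/FOXO1AAA minus NL), bars are list medians and the shaded band spans a change below 2-fold. Medians of the 16 liver lists (red) lie between -7.38 and -2.36, and among the comparison lists (grey) the proteasome has a median of -0.20.

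The secreted proteins of liver were lower nearly throughout. All 34 tested plasma transport proteins fell, with a median log2 fold change of -5.48. Alb (chromosome 5, 90460897 to 90476602) stood at 45210, 44600, 39560 and 43310 FPKM in NL and at 458, 910 and 554 FPKM in c-MYC/FOXO1AAA. The tumour mean was 67.4-fold lower and the groups were far from overlapping (log2 fold change -6.13, SE 0.34, limma adjusted p 1.24e-07). Pzp, a protease inhibitor of mouse plasma, held 15460, 13600, 13790 and 15230 FPKM in NL and 202, 544 and 234 FPKM in the tumours, or 2.25% of NL. Transthyretin (Ttr), the carrier of thyroid hormone and retinol-binding protein, was at 1.29% of NL, and Serpina1a, an inhibitor of elastase, at 1.27%. These last genes and Apoa1 and Cps1 are the defining hepatocyte markers, together with Alb and Hnf4a, and all 6 were lower in the tumours.

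Of 40 genes of coagulation and complement, 39 fell, with a median of -5.16. Serpinc1, which encodes antithrombin (chromosome 1, 160978585 to 161005863), was 9722 to 9807 FPKM in the 4 NL libraries and 142, 183 and 318 FPKM in the tumours. Fgg, the γ chain of fibrinogen, held 2081, 1758, 2548 and 2117 FPKM in NL and 30.3, 70.1 and 85.2 FPKM in the tumours. The exception was Pros1, which encodes protein S, a cofactor of anticoagulation (chromosome 16, 62854307 to 62929346). It stood at 19.9, 19.1, 19.97 and 20.1 FPKM in NL and at 26.3, 16.6 and 22.7 FPKM in the tumours, so that the groups overlapped. Its log2 fold change of 0.12 (95% interval -0.28 to 0.52) was shown to be smaller than 2-fold (limma adjusted p 0.00227), but not when every library was given the same FPKM total, where it was 1.22. In c-MYC tumours Pros1 was 1.38 FPKM ± 0.334 (SD, n = 3), and it was higher with FOXO1AAA (log2 fold change 3.95, SE 0.19, limma adjusted p 1.96e-07).

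Acute phase proteins, which the liver raises in inflammation, had a median nearer to NL. Of 22 genes 17 were lower, with a median of -3.49, and Cd14, the coreceptor for lipopolysaccharide, was higher (1.78 FPKM ± 0.539 (SD, n = 4) in NL against 8.91 FPKM ± 1.01 (SD, n = 3)). Haptoglobin (Hp), which binds free haemoglobin, fell from 4437, 2195, 3601 and 4261 FPKM to 170, 375 and 166 FPKM, or 6.53% of NL. Orm1, an α1-acid glycoprotein, fell to 1.94%. Lcn2, Mt1, Mt2 and Il1rn passed neither test. Mt1, a metallothionein, spanned 134 to 649 FPKM in NL and 215 to 439 FPKM in the tumours.

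Lipid transport fell as a whole. All 24 genes of apolipoproteins and lipoprotein assembly were lower, with a median of -5.28. Apoe, a ligand for lipoprotein receptors (chromosome 7, 19696109 to 19699188), kept more than most. It stood at 39240, 35380, 35780 and 38180 FPKM in NL and at 2577, 2896 and 3694 FPKM in the tumours, which is 8.23% of NL, and it ranked 10 among all genes of the tumours. Apoa2, a protein of high-density lipoprotein, was at 31350 to 32900 FPKM in NL and at 262, 277 and 1058 FPKM in the tumours, with tumour 3 well above the others. Its tumour mean was 1.66% of NL.

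Genes that dispose of nitrogen and make glucose were lower in every tested member. All 8 urea cycle genes fell (median -5.42), as did 20 of 20 genes of gluconeogenesis, glycogen and fructose (-5.13) and 46 of 46 of amino acid catabolism (-5.49). Ass1, which makes argininosuccinate in the urea cycle (chromosome 2, 31470207 to 31520672), was 1943 to 2157 FPKM in NL and 19.7, 15.9 and 62.8 FPKM in the tumours. Arg1, the arginase that releases urea, was 1309 to 1359 FPKM in NL and 13.03, 11.5 and 35.5 FPKM in the tumours. In both genes tumour 3 was the highest of the tumours, and none came near NL. Pck1, the enzyme that commits carbon to gluconeogenesis, held 1281, 1623, 1514 and 1274 FPKM in NL and 5.75, 11.7 and 6.50 FPKM in the tumours, or 0.56% of NL. Fbp1, which acts later in the same pathway, was at 1.097%. Hpd, of tyrosine breakdown, was at 1.14%, and Gnmt, which uses S-adenosylmethionine to methylate glycine, at 1.08%.

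Bile acid and detoxification genes fell with few exceptions. Cytochrome P450 enzymes had a median of -6.07 and 41 of 41 fell, with 16 of the 43 in the table below 1% of NL. Cyp2e1, which oxidises ethanol (chromosome 7, 140763739 to 140774987), held 8720, 6625, 7645 and 8020 FPKM in NL and 58.0, 85.6 and 46.8 FPKM in the tumours. Cyp2c29 fell from 1398 to 1617 FPKM in NL to 4.17, 6.82 and 3.27 FPKM (log2 fold change -8.35, SE 0.54, limma adjusted p 3.04e-07). Of 25 genes of bile acid synthesis and transport 24 fell, with a median of -5.76. Cyp7a1, the rate-limiting enzyme of bile acid synthesis, was at 0.933% of NL, and Akr1c6 of the same list at 1.14%. The exception was Cyp39a1, an oxysterol hydroxylase of low level, at 2.88 to 4.09 FPKM in NL and 3.15 to 5.28 FPKM in the tumours, which passed neither test. Of 61 conjugating and detoxifying enzymes 60 fell (median -5.16). Gsto1, a glutathione transferase, was within 2-fold at 78.3% of NL.

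The major urinary proteins, pheromone carriers made by mouse liver, had the lowest list median of -7.38 and 18 of 18 fell. Their summed FPKM was 43360 to 48800 in NL and 239, 291 and 303 in the tumours, or 0.596% of NL. They made up 7 of the 8 genes named for the largest decrease, led by Mup7 (9089 FPKM ± 1266 (SD, n = 4) against 3.49 FPKM ± 2.16 (SD, n = 3)). Because the copies of this family are nearly identical, reads may have been assigned to the wrong member, and values of single members are uncertain. Mup19, for example, was 3634, 12.7, 42.3 and 4143 FPKM in the 4 NL libraries.

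Fat metabolism fell to a smaller degree. Of 30 genes of fatty acid oxidation and ketogenesis 29 were lower with a median of -3.18, and of 34 genes of cholesterol and fatty acid synthesis 33 were lower with a median of -3.30. The median remainder in these lists was 11.1% and 10.1% of NL. Fabp1, a fatty acid carrier of the hepatocyte, was an exception within its list, at 10980 to 12580 FPKM in NL and 59.5, 123 and 270 FPKM in the tumours. Thrsp, a regulator of fat synthesis, was at 0.819% of NL. Elovl5, which elongates polyunsaturated fatty acids, kept 15.5% of NL (1668 to 2229 FPKM in NL, 270 to 340 FPKM in the tumours). Srebf2, the transcription factor for sterol synthesis genes, stood at 27.6, 19.3, 20.3 and 24.0 FPKM in NL and at 22.2, 24.8 and 18.1 FPKM in the tumours and was within 2-fold of NL (log2 fold change -0.07, 95% interval -0.46 to 0.33), but not with the same FPKM total (1.03).

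Iron handling had the median nearest to NL among the liver lists, -2.36, with 11 of 15 genes lower. Hamp, which encodes the iron hormone hepcidin (chromosome 7, 30942368 to 30944032), fell from 4264 to 5352 FPKM in NL to 25.1, 30.7 and 39.3 FPKM, or 0.66%. Ferritin light chain (Ftl1), the store of iron, kept 19.1%. Slc11a2, an iron transporter, and Hmox1, which breaks down haem, were within 2-fold of NL. Tfrc, the transferrin receptor through which cells take up iron, rose from 6.81, 5.16, 4.02 and 4.15 FPKM to 27.0, 27.1 and 24.7 FPKM, a mean 5.21-fold higher (log2 fold change 2.41, SE 0.18, limma adjusted p 3.07e-06).

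In the growth hormone and IGF axis, 9 of 13 genes were lower (median -3.70). Igfbp4 and Igfbp2, binding proteins of IGF, were at 5.34% and 6.84% of NL. Stat5b, which carries the growth hormone signal, was 12.1 to 15.6 FPKM in NL and 11.9 to 16.6 FPKM in the tumours, within 2-fold. Igfbp1, Socs2 and Jak2 passed neither test.

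The transcription factors that maintain these genes fell with them, but not all did. Of 25 hepatocyte transcription factors, 21 were lower, 3 were within 2-fold of NL and Foxa1 was neither, with a median of -4.06. Hnf4a, a nuclear receptor at the centre of the network (chromosome 2, 163506808 to 163572910), stood at 181, 164, 197 and 190 FPKM in NL and at 4.64, 5.70 and 11.1 FPKM in the tumours. Its mean was 25.6-fold lower (log2 fold change -4.78, SE 0.25, limma adjusted p 7.97e-08). Cebpa, which drives metabolic genes of the hepatocyte, was 416 to 504 FPKM in NL and 17.6, 26.8 and 37.8 FPKM in the tumours. In both the tumours lay apart from NL, and tumour 3 was the highest of them.

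The 3 FOXA factors, which open liver chromatin, were lower in 2 cases. Foxa2 fell from 22.5 to 42.8 FPKM in NL to 0.451, 0.517 and 2.66 FPKM. Foxa3 fell from 25.6 to 43.1 FPKM to 2.59, 2.27 and 4.81 FPKM. Foxa1 was 9.31, 12.4, 14.7 and 8.90 FPKM in NL and 3.93, 5.41 and 4.57 FPKM in the tumours. Its groups did not overlap, but its log2 fold change of -1.26 had a wide interval of -4.03 to 1.51 in the fit over all 10 libraries (limma adjusted p 0.534). Foxa1 was 6.85, 0.0166 and 0.188 FPKM in the 3 c-MYC libraries of that fit, and it was called lower when only the 7 NL and c-MYC/FOXO1AAA libraries were fitted (limma adjusted p 0.00918).

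Among nuclear receptors of metabolism, Nr1i3 (CAR, a sensor of drugs) fell most, from 27.2 to 30.3 FPKM in NL to 0.172, 0.0947 and 0.613 FPKM. Ppara, which drives fatty acid oxidation, Nr1i2 (PXR, another drug sensor) and Nr1h4 (FXR, the bile acid receptor) were at 2.70%, 3.58% and 4.01% of NL. Nr1h3 (LXRα, a sterol sensor) and Rxra, the partner of these receptors, kept 11.6% and 13.2%. Onecut1, Onecut2 and Tbx3 were at 3.19%, 1.74% and 2.39%, and Creb3l3, Nr5a2, Esr1, Thrb and Gata4 at 4.38% to 10.8%. Zbtb20, a repressor of fetal liver genes, was at 20.1%, and Cebpb, a factor of the acute phase, at 24.4%. With the same FPKM total in every library Cebpb was no longer called lower (log2 fold change -0.92).

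The factors within 2-fold of NL were Prox1, Atf5 and Zhx2. Prox1, which hepatoblasts already express, stood at 13.01, 14.1, 11.6 and 12.8 FPKM in NL and at 20.5, 17.8 and 12.5 FPKM in the tumours. Atf5, a leucine zipper factor, stood at 142, 106, 100.5 and 132 FPKM in NL and at 86.9, 83.7 and 90.5 FPKM in the tumours, so that its groups did not overlap although its change was shown to be below 2-fold (log2 fold change -0.45, 95% interval -0.78 to -0.12). Zhx2, a repressor of fetal liver genes such as Afp and H19, was 3.74 to 4.82 FPKM in NL and 3.97 to 4.87 FPKM in the tumours. With the same FPKM total in every library their log2 fold changes were 1.47, 0.65 and 1.2 and the test for a change below 2-fold was passed by 0 of the 3. The test of Prox1 was also lost without NL 1, NL 2, NL 4 or tumour 2 or 3 (limma adjusted p 0.0503 to 0.124).

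**Figure D4:**
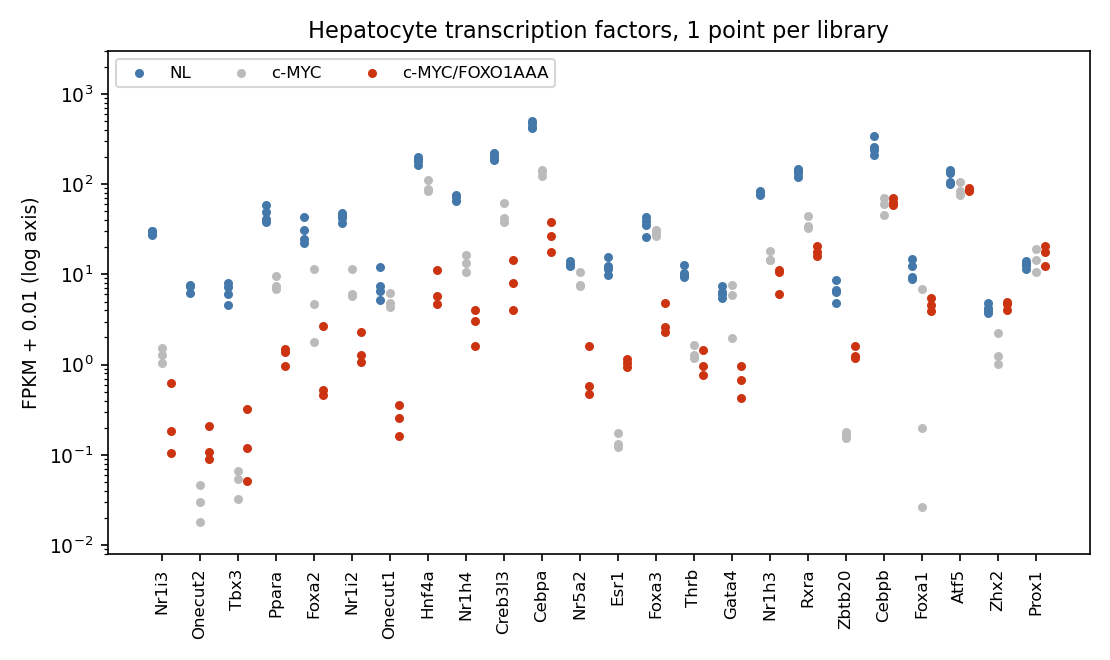
Each point is a library, the x axis lists 24 of the 25 hepatocyte transcription factors ordered by log2 fold change and the y axis is FPKM + 0.01 on a log axis, with NL in blue, c-MYC in grey and c-MYC/FOXO1AAA in red. For most factors the red points lie below the blue ones, while for Prox1, Atf5 and Zhx2 they lie at a similar height.

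Against c-MYC tumours the same factors were tested directly. With FOXO1AAA 13 of the 25 were lower and 4 higher, where 11.8% and 16.3% of all genes were lower and higher. Because the genes were chosen without the c-MYC libraries, genes expressed in c-MYC alone were left out of these shares. Genes expressed in c-MYC/FOXO1AAA alone were kept and lean to higher calls. Hnf4a was 94.3 FPKM ± 15.5 (SD, n = 3) in c-MYC and lower with FOXO1AAA (log2 fold change -3.81, SE 0.27, limma adjusted p 3.08e-06). Foxa3, Onecut1, Nr5a2 and Gata4 were also lower than in c-MYC, with log2 fold changes of -4.24 to -2.72. Esr1, Zbtb20, Zhx2 and Onecut2 were the 4 that were higher, by 1.66 to 3.03. In c-MYC these were 0.133, 0.158, 1.49 and 0.0215 FPKM on average, and in c-MYC/FOXO1AAA 1.03, 1.33, 4.49 and 0.125 FPKM.

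Forkhead factors, to which FOXO1 and the FOXA proteins belong, bind sequences with the letters GTAAACA. These letters were searched on both strands in promoter windows (250 bases before to 50 after a start site, RefSeq, GRCm38.p6), which 9916 of the tested genes had. They were found in 118 of 2712 lower genes (4.35%), 89 of 3150 higher genes (2.83%) and 84 of 2579 genes within 2-fold of NL (3.26%), against 3.34% of all tested genes with a window. Of the listed liver genes 350 had a window and 21 of them (6.00%) held the letters. Of these 21, 19 were lower in c-MYC/FOXO1AAA, and Foxa1 and Steap3, a reductase of iron, passed neither test. Among all tested liver list genes 433 of 455 were lower, so the count of 19 does not set these genes apart. A match is a description of the letters and not of binding. The windows of a pair of abundant apolipoproteins, chosen after their values were seen, are printed to show where the match lies, 5′ to 3′ in the direction of the gene, with the motif in capitals. They are Apoa2 (chr1:171224804-171225103, plus strand) and Apoh, a phospholipid-binding protein of plasma (chr11:108395047-108395346, plus strand).
Apoa2: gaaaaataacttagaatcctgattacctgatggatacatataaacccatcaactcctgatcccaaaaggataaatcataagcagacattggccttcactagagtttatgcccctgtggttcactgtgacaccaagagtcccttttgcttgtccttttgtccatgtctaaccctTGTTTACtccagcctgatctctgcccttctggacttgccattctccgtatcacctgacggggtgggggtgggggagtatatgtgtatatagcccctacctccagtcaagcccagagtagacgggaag
Apoh: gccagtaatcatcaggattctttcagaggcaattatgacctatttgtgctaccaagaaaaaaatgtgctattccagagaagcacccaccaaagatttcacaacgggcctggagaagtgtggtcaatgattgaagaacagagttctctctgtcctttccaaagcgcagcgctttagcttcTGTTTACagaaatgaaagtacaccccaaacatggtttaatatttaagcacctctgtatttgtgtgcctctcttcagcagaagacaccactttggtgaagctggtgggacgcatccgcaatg

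The motif begins 77 and 71 bases before the start site in these windows and lies on the opposite strand in both. Apoa2, described above, kept 1.66% of NL. Apoh stood at 3691, 3042, 3493 and 3467 FPKM in NL and at 38.1, 59.6 and 92.6 FPKM in the tumours, or 1.85% of NL. In both genes tumour 3 was the highest of the tumours and all 3 lay far below NL. The E-box CACGTG, a sequence that MYC binds, was in 10.3% of the lower, 12.7% of the higher and 12.8% of the within 2-fold genes with a window, against 11.8% of all tested genes with a window.

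The zones of the liver lobule were also compared. Pericentral genes are expressed around the central vein under WNT signals, and periportal genes around the portal vein. Of 20 pericentral genes 18 were lower, with a median of -4.40, and of 20 periportal genes 17 were lower, with a median of -5.76. Cyp1a2, a pericentral enzyme, fell from 1102 to 1400 FPKM in NL to 7.05, 9.66 and 4.86 FPKM. Glul, the glutamine synthetase of the innermost pericentral cells, kept 13.03% (249 to 300 FPKM in NL, 31.7, 34.4 and 38.4 FPKM in the tumours). Lgr5 and Znrf3, both parts of WNT signalling, passed neither test. Sfxn1, a mitochondrial serine transporter, and Atp11a, a lipid flippase, were periportal genes within 2-fold of NL, at 97.9% and 114%. Both lost this call with the same FPKM total, and Atp11a also without tumour 1. Against c-MYC, pericentral genes were higher in 8 and lower in 1 of 20, and periportal genes higher in 3 and lower in 11 of 20.

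The other liver lists were tested in the same way. Over all 455 genes, the tumours with FOXO1AAA had 198 lower and 97 higher, where 11.8% and 16.3% of all genes were. These shares have the limit given for the factors. In the urea cycle 7 of 8 were lower and 0 higher, in amino acid catabolism 32 of 46 lower and 4 higher, in fatty acid oxidation 23 of 30 lower and 1 higher, and in coagulation and complement 26 of 40 lower and 7 higher. Ass1, at 604 FPKM ± 12.8 (SD, n = 3) in c-MYC, was lower (log2 fold change -4.48, SE 0.40, limma adjusted p 1.55e-05), and Serpinc1, at 2194 FPKM ± 195 (SD, n = 3), by -3.43 on the log2 scale. In other lists more genes were higher than lower. In the major urinary proteins 11 of 18 were higher and 0 lower, in acute phase proteins 11 of 22 higher and 2 lower, in conjugation and detoxification 24 of 61 higher and 10 lower, and in cytochrome P450 enzymes 12 of 41 higher and 8 lower. Hp was 23.8 FPKM ± 19.2 (SD, n = 3) in c-MYC and higher with FOXO1AAA (log2 fold change 3.49, SE 0.51, limma adjusted p 0.000692). Cyp2e1, at 13.3 FPKM ± 12.7 (SD, n = 3) in c-MYC, was higher by 2.75, and Pck1, at 0.939 FPKM ± 0.770 (SD, n = 3), by 3.27. Hp, Cyp2e1 and Pck1 were nevertheless lower than NL in c-MYC/FOXO1AAA, while Cd14 and Pros1, also higher than in c-MYC, were not. Should the c-MYC mice have received MCL1, its effect is part of this comparison.

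Of the 3330 genes within 2-fold of NL, 9 were in the liver lists. All 9 lost this call with the same FPKM total in every library, where their log2 fold changes were 0.65 to 1.47, and Gsto1 also without tumour 3. Of 31 proteasome subunits, the protease that degrades tagged proteins, 29 were within 2-fold of NL and 1 was lower, where 24.4% of all genes were within 2-fold. Their median log2 fold change was -0.20, and their summed FPKM was 3365 to 3856 in NL and 3018, 3219 and 3414 in the tumours. With the same FPKM total in every library 5 of the 31 were within 2-fold and 23 were higher, Psmc6 was not within 2-fold, and after quantile normalization 23 were within 2-fold and 7 higher. Psmc6 stood at 239, 218, 234 and 229 FPKM in NL and at 203, 190 and 218 FPKM in the tumours. As a share of total FPKM the list was 0.334% ± 0.0123 (SD, n = 4) in NL and 0.637% ± 0.0128 (SD, n = 3) in the tumours. The translation factors Eef2 and Eef1a1, chosen after their values were seen, were the most abundant genes within 2-fold of NL beside Atp5b. Eef2 was 4130 to 4988 FPKM in NL and 6297 to 7462 FPKM in the tumours and ranked 2 among tumour genes. Tpi1, an enzyme of glycolysis chosen in the same way, was 718 to 848 FPKM in NL and 788 to 917 FPKM in the tumours.

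The respiratory chain lay between. Of 49 nuclear genes 41 were lower and 5 within 2-fold of NL, where 27.1% and 24.4% of all genes were. Their median log2 fold change was -1.2. The groups lay apart in all 49, and in 81.3% of all genes tested. Summed FPKM was 18100 to 19580 in NL and 8435, 8916 and 10820 in the tumours. With the same FPKM total in every library 39 of the 49 were within 2-fold and 5 lower, and after quantile normalization 31 were within 2-fold and 8 lower. As a share of total FPKM the list was 1.70% to 1.82% in NL and 1.74% to 2.06% in the tumours. Atp5b, the catalytic subunit of ATP synthase, was at 75.3% of NL and Atp5a1 at 64.2%, both within 2-fold. Cox4i1, a subunit of cytochrome oxidase, stood at 1124 to 1220 FPKM in NL and at 493, 535 and 667 FPKM in the tumours (log2 fold change -1.06, SE 0.14, limma adjusted p 0.00691), and its sign turned to 0.04 with the same FPKM total. Mitochondrially encoded genes took 6.76% to 9.37% of total FPKM in NL and 3.36% to 4.70% in the tumours.

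**Figure D5:**
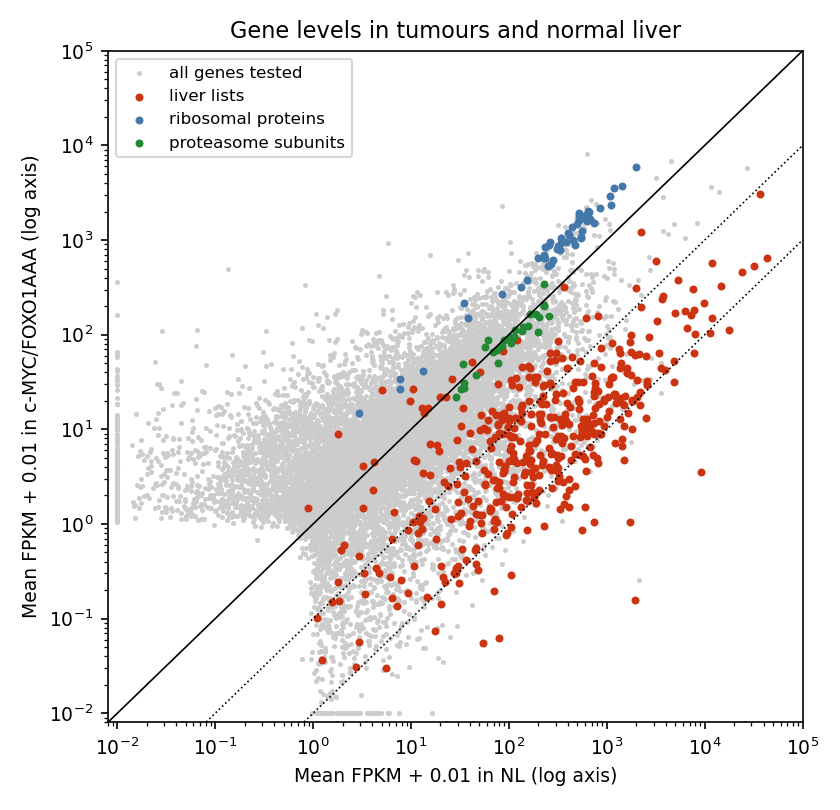
Each point is a gene, with mean FPKM + 0.01 in NL on the x axis and in c-MYC/FOXO1AAA on the y axis, both log axes, and lines mark equal levels (solid) and decreases of 10-fold and 100-fold (dotted). Liver list genes (red) lie mostly between or below the dotted lines, proteasome subunits (green) along the solid line and ribosomal proteins (blue) above it.

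Growth genes were higher. All 30 tested ribosome biogenesis genes rose, with a median log2 fold change of 1.96, and all 51 tested cytosolic ribosomal proteins rose, with a median of 1.5, where 31.6% of all genes were higher. Npm1, a nucleolar chaperone, stood at 146, 82.95, 100.6 and 92.6 FPKM in NL and at 663, 697 and 825 FPKM in the tumours. Rpl18 stood at 1657 to 2276 FPKM in NL and at 5078, 6139 and 6400 FPKM. Ribosomal proteins together took 1.91% to 2.34% of total FPKM in NL and 12.1%, 12.6% and 13.5% in the tumours. Of 39 genes of cell division 37 rose, with a median of 4.21, and 31 had a mean of 1 FPKM or more in NL, so that the filter took in the others through the tumours. Pcna, the clamp of DNA polymerase, stood at 33.1 to 38.3 FPKM in NL and at 157 to 164 FPKM in the tumours, and Mcm7, of the replicative helicase, was 11.1-fold higher. Tk1, a thymidine kinase, was the exception within 2-fold of NL, at 42.8 to 52.8 FPKM in NL and 40.6 to 49.7 FPKM in the tumours, but not with the same FPKM total (log2 fold change 1.02). In these 3 lists 0 genes were higher and 1 was lower than in c-MYC tumours.

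Of 21 tested fetal and oncofetal liver genes 17 rose, with a median of 4.31 over the 23 in the table. Of these 23, 11 had a mean of 1 FPKM or more in NL, and those below it that were tested had passed the filter through the tumours. H19 stood at 1403, 88.3, 669 and 329 FPKM in NL and at 6651, 9096 and 8655 FPKM in the tumours, a mean 13.1-fold higher. Igf2, the fetal growth factor, stood at 28.1, 1.31, 11.2 and 5.14 FPKM in NL and at 283, 294 and 280 FPKM in the tumours. These NL values of H19 and Igf2 lay apart from the tumours in each library. Pkm, the pyruvate kinase of fetal and dividing cells, was 44.3-fold higher, and Aldoa, the aldolase of nonhepatic tissue, 4.67-fold higher. Afp, the classical marker of fetal liver and liver cancer, was not higher. It stood at 169, 11, 76.8 and 36.6 FPKM in NL and at 17.3, 5.50 and 112 FPKM in c-MYC/FOXO1AAA, with overlapping groups, and at 2098 FPKM on average in c-MYC, from which it was lower. H19, Igf2 and Afp had the same order over the NL libraries, with NL 1 highest and NL 2 lowest, and the summed list was 1816, 203, 888 and 507 FPKM in NL 1 to 4. Why the NL libraries differ was not tested.

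The largest increases were in genes with few or no reads in NL. These genes had passed the filter through the tumours alone, which fixed their direction. Eef1a2, a translation factor of muscle and neurons (chromosome 2, 181147653 to 181157014), had no reads in any NL library and stood at 431, 357 and 304 FPKM in the tumours, at least 2463-fold higher against a floor of 3 reads per library. Tbx15 and Olig2, transcription factors of mesoderm and of the nervous system, had no reads in NL either and were at least 671-fold and 539-fold higher. Fbn2, of connective tissue microfibrils, and Mybpc1, of slow muscle, were at least 1402-fold and 360-fold higher. Penk, the precursor of enkephalins, stood at 0 to 0.308 FPKM in NL and at 605, 414 and 446 FPKM in the tumours. Coch, a secreted matrix protein, and Acta1, skeletal muscle actin, were at least 658-fold and 517-fold higher. In c-MYC tumours the means of these 8 genes were at most 0.113 FPKM.

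Markers of other cell types were read beside these results. Of 16 skeletal muscle genes in the table, 1 had 1 FPKM or more in NL. The 13 that were tested were called higher in c-MYC/FOXO1AAA, but nearly all of them had passed the filter through the tumours, which fixed their direction. The other 3 were at most 1.17 FPKM in the tumours. The summed FPKM was 1.85 to 2.91 in NL and 426, 531 and 406 in the tumours, which is 0.0771% to 0.1055% of total FPKM. The defining genes Myod1 and Myog had no reads in NL or c-MYC, and Myog stood at 24.9, 35.2 and 17.4 FPKM in the tumours (at least 125-fold higher). Ckm, the creatine kinase of muscle, was 4.71, 8.68 and 3.76 FPKM in c-MYC/FOXO1AAA and did not pass the test against c-MYC (2.87 FPKM ± 1.998 (SD, n = 3)). The part of muscle cells in these values was not tested.

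Markers of cells that reside in liver moved in both directions. Over all genes tested 27.1% were lower, 31.6% higher and 24.4% within 2-fold, and some counts in these short lists lie near those shares. Of 14 Kupffer cell and macrophage genes 6 were lower, 2 higher and 4 within 2-fold, with summed FPKM of 351 to 586 in NL and 228 to 388 in the tumours. Clec4f, which marks resident Kupffer cells, fell from 148 to 262 FPKM in NL to 16.0, 25.2 and 12.6 FPKM, Vsig4 and Timd4 fell to 14.6% and 18.0%, and C1qa was within 2-fold at 87.7%. C1qa lost this call under 9 alternatives, among them equal medians, the same FPKM total and leaving out NL 2, NL 3 or tumour 2 or 3 (log2 fold change -0.47 to 0.88). As a share of total FPKM the list was 0.0437% ± 0.0109 (SD, n = 4) in NL and 0.0644% ± 0.0151 (SD, n = 3) in the tumours, so that its direction turned with the scaling. Of 14 endothelial genes 12 were lower and Cdh5 was higher. Clec4g, a marker of sinusoidal endothelium, fell from 28.0 to 41.7 FPKM to 0.327, 0.485 and 0.616 FPKM, and the summed list from 119 to 138 FPKM to 40.3 to 53.7 FPKM. As a share of total FPKM the endothelial list was 0.0121% ± 0.000791 (SD, n = 4) in NL and 0.00954% ± 0.00173 (SD, n = 3) in the tumours. On this measure the groups overlapped, with 0.01108% in tumour 1 and 0.01102% in NL 3. Lyve1 was in the table but under the filter.

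Of 15 stellate cell and fibroblast genes 7 were higher and 4 lower, where 31.6% and 27.1% of all genes were. Their summed FPKM was 201 to 242 in NL and 500 to 517 in the tumours. Dcn, a proteoglycan of connective tissue, stood at 70.4, 61.9, 63.6 and 83.0 FPKM in NL and at 312, 178 and 218 FPKM in the tumours, while Lrat, which defines quiescent stellate cells, fell to 6.67%. Ecm1 and Colec11, with Dcn the most abundant genes of this list in NL, fell to 7.01% and 9.64% of NL. Dcn was no longer called higher without tumour 1 or at a threshold of 2-fold. Cholangiocyte markers were low, with 1 of 5 tested genes lower and 0 higher. In this list Spp1 was 15.4 to 23.8 FPKM in NL and 21.5 to 29.4 FPKM in the tumours, and Epcam stood at 0.572 to 1.91 FPKM and 1.41 to 2.97 FPKM. Lymphocyte and granulocyte genes were in the table for 8 of 15, with summed FPKM of 6.02 to 12.5 in NL and 12.6 to 24.7 in the tumours. Of 7 tested, 3 were lower (Itgal, Cd4 and Nkg7), 1 was higher and 3 were neither, with a median log2 fold change of -1.02. Itgal, an integrin of leukocytes, stood at 1.56 to 2.90 FPKM in NL and at 0.304 to 0.487 FPKM in the tumours. Ptprc, which marks all leukocytes, was at 81.4% of NL, and Cd79a, of B cells, was the higher one (0 to 0.808 FPKM in NL, 6.89 to 11.8 FPKM in the tumours). Cd79a had passed the filter through the tumours, which fixed its direction. Erythroid genes fell in 4 of 5, from a summed 1118 to 2219 FPKM to 217 to 534 FPKM. With the same FPKM total in every library the haemoglobin genes Hba-a1, Hbb-bs and Hbb-bt were no longer called lower. As a share of total FPKM the erythroid list was 0.105% to 0.1973% in NL and 0.0431% to 0.1015% in the tumours. The part of these cells in the results above was not tested.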

How the data were processed

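RNA was measured in 10 mouse liver libraries. The values, as deposited by the authors, are log2 FPKM per gene, made from gene counts, with a prior count of 2 added before the logarithm. Submitters' processing notes name GRCm38 and FastQC 0.11.7. The aligner, the counter and the choice of polyA capture or rRNA removal are not given in the sources used here. FPKM without the prior count and whole reads were recovered from the steps of the values (1 fitting length for 99.8% of 16697 entries, tolerance 0.002). Of 17069 entries, 372 without a symbol were left out, and 27 with a duplicated or date-like symbol were tested but not named.

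Genes were tested on the deposited log2 FPKM with limma 3.58.1 (R 4.3.3, treat, 1.5-fold, trend and robust, Benjamini-Hochberg adjusted p under 0.05), in a fit of 3 group means over 10 libraries. The study used a count test of the same kind for which the sources give no fold threshold in these samples. A change below 2-fold was shown by a pair of one-sided moderated tests of the same fit. Intervals are at 95%. In data simulated for c-MYC/FOXO1AAA versus NL over 12187 genes, 99 of 100 genes changed 4-fold, 6 of 100 changed 2-fold and 0 of 11987 unchanged genes were called. The simulation held the unchanged genes at their NL mean in every group, with the same relative spread for all genes. In the data 58.8% of genes were called and total FPKM differed between the groups. The simulation therefore does not show how many false calls such a shift would give. Depth, 13.1 M to 20.5 M reads per library, sets the floor of 3 reads for genes without reads, which covers counting error only. Because no label ties libraries to separate mice, p-values measure the spread between these samples.

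Members and gene lists were chosen with earlier results of these data known. Genes were named by rule. The rule took the 8 largest increases and decreases without overlap, the 2 most abundant genes in NL of each list, up to 3 within 2-fold and up to 2 higher per list, all hepatocyte transcription factors, Foxo1 and Myc, and the 3 most abundant of each cell type list. Some genes that the rule names are not reported here. Defining markers of cell types were also fixed. Other genes with values in the text (such as the promoter examples and the genes passing neither test) were chosen after their values were seen. Gene coordinates are from GENCODE M21 (GRCm38), promoters from RefSeq (GRCm38.p6). Alternatives changed the pseudocount, filter, scaling, threshold and libraries.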

Additional observations from a re-analysis of the deposited data

Results flagged for a closer look

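Among 123 values tested over the 4 NL libraries, 10 had a library far from the others, where chance flags about 1 in 20. NL 2 stood apart in 5 of them. It held 2195 FPKM of Fbp1 where the others held 1682 to 1729 FPKM, and 2444 FPKM of Akr1c6 (others 2568 to 2587 FPKM). It also held 19.14 FPKM of Pros1 (others 19.93 to 20.07 FPKM), and it alone had reads of the muscle genes Acta1, at 0.07336 FPKM, and Tnni2, at 0.1381 FPKM. Each of these muscle values is 1 read, and any read beside libraries with 0 is flagged, so they say little about NL 2. NL 4 held 1359 FPKM of Arg1 (others 1309 to 1312 FPKM) and 14.03 FPKM of Nr5a2 (others 12.46 to 12.6 FPKM), and its liver lists took 46.45% of total FPKM (others 44.88% to 45.01%). NL 1 held 2284 FPKM of Hpd (others 2122 to 2138 FPKM). NL 3 held 1565 FPKM of Mup16 (others 260 to 287.3 FPKM), a gene with near-identical copies. Groups of 3 libraries could not be examined in this way.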

How the results depend on the processing

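Of the summary results under the alternatives, 179 values kept their direction and side of the threshold, 8 counts moved by more than 1.5 times and 7 values were weaker. With the same FPKM total in every library, 7962 genes were higher, 2089 lower and 1749 counted as genes within 2-fold of NL in c-MYC/FOXO1AAA, and 13 liver list genes were higher. With a mean FPKM of 5 or more, which tests fewer genes, 2479 genes and 1 liver list gene were higher. Within 1.5-fold of NL lay 516 genes and 0 liver list genes. Leaving out a library gave a distance between c-MYC/FOXO1AAA and NL, less that within groups, of 1.919 to 2.029, with exact permutation p of 0.06667 to 0.1, in designs too small to pass 0.05. Signs turned for Cox4i1 (0.04 with the same FPKM total), Psmb6 (0.40 with the same total, 0.30 by quantile), Ptprc (0.75 with the same total) and S100a9 (-0.08 with equal medians, -0.52 by quantile, and -1.05 to 0.60 without 1 library, the lowest without tumour 3), and the cause was not tested. Of the other values for single genes and lists, 4500 kept their call, 94 lost it, 4 gained it and 123 counts moved by more than 1.5 times. Replicate numbers did not pair the libraries, since deviations of same-numbered libraries had correlations of -0.02 to 0.03. With a replicate block, 4158 genes were higher and 3585 lower, with 432 liver list genes lower, and 203 lower and 95 higher than in c-MYC.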
